A study of Mus musculus with 8 samples.

Results

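Brush cells of the nasal epithelium are scattered chemosensory cells that carry a tuft of microvilli and transduction proteins of taste cells. Microvillous cells of the olfactory epithelium are related to them but need not carry all of these proteins. The genes described are 8 markers used for cells of this kind: Gnat3, Plcb2, Tas1r3, Sucnr1, Pou2f3, Avil, Chat and Il25. They were selected by symbol from the transcript clusters, the unit at which the array reports a gene, that the platform annotation assigns to exactly 1 gene. Each had 1 such cluster, so that all 8 members were measured among 21789 single-gene clusters of 19938 genes. RNA of the olfactory mucosa was hybridised from 8 mice of a mixed 129 x C57BL/6J background at postnatal day 1, with 1 array per mouse. The 4 knockouts were OmpCre:Emx2(fl/fl), controls 1 to 3 were OmpCre:Emx2(fl/+) littermates, and control 4 was an Emx2(fl/fl) littermate without Cre. Every mouse therefore carried at least 1 floxed copy of Emx2, a homeodomain factor gene. Cre was expressed from the Omp locus, which in this epithelium is active in mature olfactory sensory neurons (OSNs). The 8 members were chosen as markers of other cells. Which cells made their signals, whether brush cells, microvillous cells or others, was not tested. By the study's methods the litters were fewer than the knockouts and each also gave controls, so that some mice of 1 group were littermates. Which mice shared a litter is not given in the labels. The p-values of the group comparison set differences against the spread between mice and treat the mice as independent.

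In a brush cell, a receptor at the tip of the cell activates the G protein gustducin, phospholipase C beta 2 releases calcium through inositol trisphosphate, and the calcium opens the cation channel Trpm5. The cell then releases acetylcholine onto neighbouring cells and nerve endings, or the cytokine IL-25 and lipid mediators, which act on innate lymphoid cells of type 2 immunity. The transcription factor Pou2f3 is required to form these cells in many epithelia.

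Because Pou2f3 binds DNA, the promoters of the other members were searched for the octamer, the motif of POU factors of its class. Those of Sucnr1, which held it, and of Chat, which did not, are shown side by side. Of the 8 members, 6 had an entry in the RefSeq promoter table of GRCm38.p6. Each sequence gives the 250 bases before the annotated start, 5′ to 3′ on the strand of the gene. Sucnr1 lies on the plus strand (chr3:60081619-60081868) and Chat on the minus strand (chr14:32465910-32466159). Capitals mark the octamer ATGCAAAT.
Sucnr1: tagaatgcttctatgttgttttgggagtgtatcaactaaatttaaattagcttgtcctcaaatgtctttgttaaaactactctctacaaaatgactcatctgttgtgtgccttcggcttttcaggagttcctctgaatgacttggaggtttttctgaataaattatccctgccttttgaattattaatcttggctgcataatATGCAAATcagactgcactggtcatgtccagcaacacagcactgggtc
Chat: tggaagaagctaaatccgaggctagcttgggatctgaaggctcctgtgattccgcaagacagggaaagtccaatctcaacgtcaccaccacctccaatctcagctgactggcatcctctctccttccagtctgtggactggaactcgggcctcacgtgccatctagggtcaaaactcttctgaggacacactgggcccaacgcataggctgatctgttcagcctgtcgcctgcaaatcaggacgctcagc

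The octamer, searched as ATGCAAAT on both strands, was found in 1 of the 6 member promoters, that of Sucnr1, where it began 48 bases before the start. Over windows of 300 bases, which add 50 bases after the start, 1.74% of the 32851 promoters in the table held it. The homeodomain core TAATTA, which reads the same on both strands, was in 0 of the 6 member promoters and in 5.29% of all promoters. A match describes letters only, and the arrays do not measure binding.

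Emx2 itself was lower in all 4 knockouts (10.14 to 10.34) than in any control (10.58 to 10.89, log2 signal), a log2 difference of -0.55 ± 0.08 SE with a limma adjusted p of 0.201. Omp, the gene into which Cre was inserted, was 12.56 to 13.43 in controls and 12.60 to 12.91 in knockouts. The OSN markers Cnga2 and Adcy3 had log2 signals of 12.14 to 12.56 and of 11.50 to 11.92, so that the defining genes of the labelled tissue were present. Array medians lay between 8.64 and 8.68. Control 2 stood apart, at 32.9 on the first principal component where the other arrays lay between -11.83 and 6.11. It also had the highest mean of the 11 myeloid markers (9.77, against 8.68 to 8.94 in the other 7 mice). Control 1 had the highest mean of the 8 genes listed for Bowman's glands (12.40, against 10.75 to 11.60 in the other 7 mice). Its Obp1a (13.51), Obp2a (14.12), Bpifb3, Bpifb4 and Bpifb9b were the highest of the 8 mice. Its Sox10 (9.04), Aqp5 (11.25) and Lyz2 (11.30) lay within the range of the other mice.

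All 8 members gave signals below the median of the single-gene clusters in every array, and the file holds no call of detection, so that their distance from background is unknown. Levels are therefore compared between mice for 1 gene at a time and never between genes. No member was called in the comparison of knockouts with controls, made to find the transcripts that change when mature OSNs lose Emx2. In limma, 0 of 8 members were at an unadjusted p under 0.05, where 5.17% of all clusters were, and 0 of 8 passed after adjustment over all clusters, where 0 clusters (0.0%) did. The methods' t-test likewise gave 0 members at an unadjusted p under 0.05 (4.96% of all clusters) and 0 after adjustment.

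Of the 8 members, 3 had a higher mean in the knockouts and 5 a lower one, with a median log2 difference of -0.03 where that of all clusters was 0.0024. The absolute differences ran from 0.02 to 0.17. The groups overlapped in all 8, whereas they did not overlap in 3.1% of all clusters. The limma adjusted p values of the members ranged from 0.910 to 0.982, and their two-sided exact permutation p values over the 70 assignments of the 8 mice ranged from 0.0857 to 0.83, where 0.0286 was the smallest possible. In bulk tissue, fewer cells of a type and less RNA per cell cannot be told apart, and this applies to every value below.

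**Figure D1:**
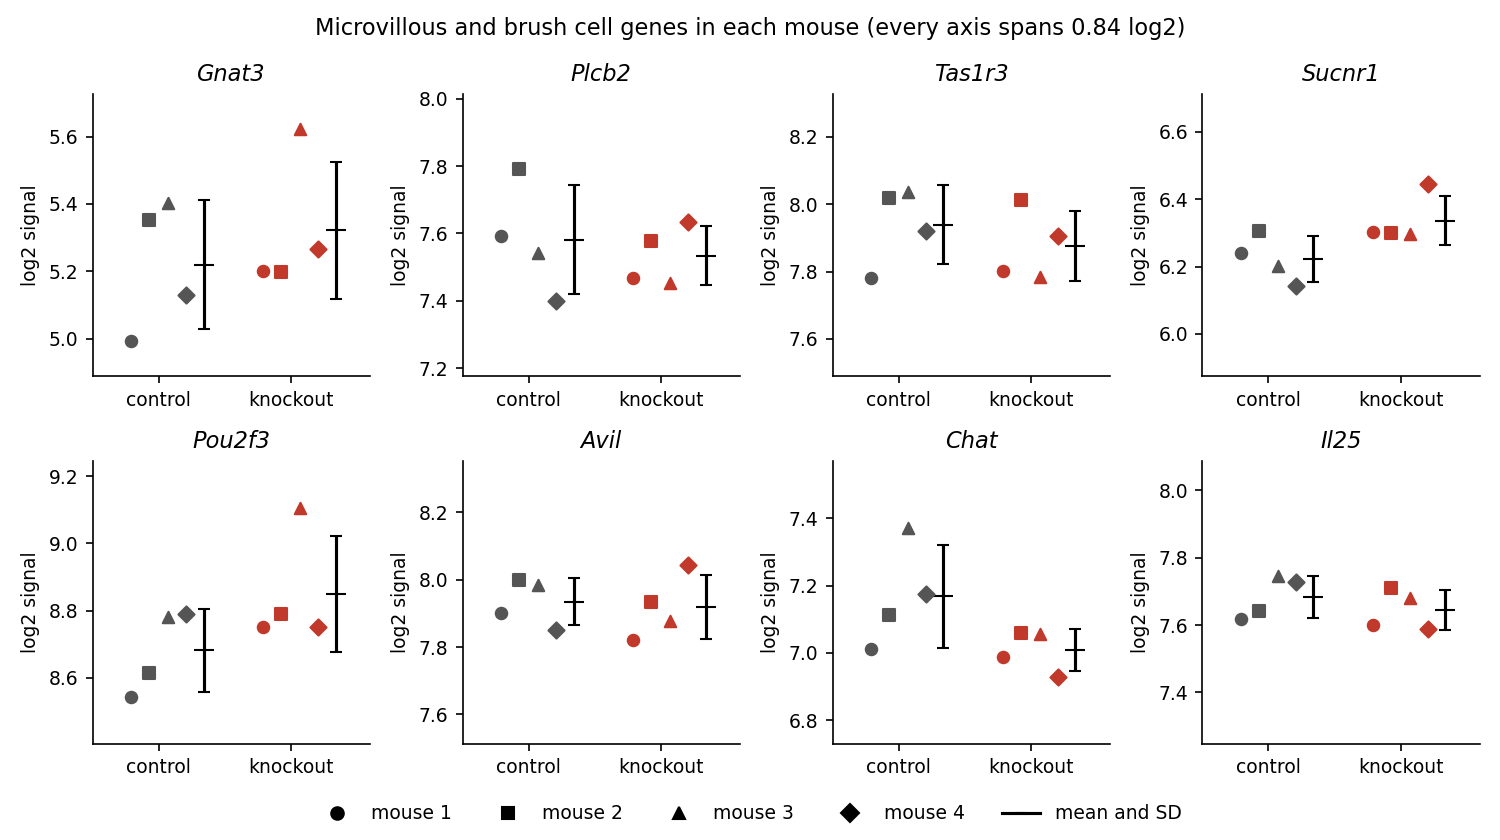
Log2 signal of the 8 members in each of 4 control (grey) and 4 knockout (red) mice, with 1 symbol per mouse number in each group and the group mean and SD (bars). Every axis spans the same length on the log2 scale. The groups overlap in all panels, knockout 3 lies highest for Pou2f3 (9.11) and Gnat3 (5.62), and control 3 lies highest for Chat (7.37).

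The receptors were Tas1r3 and Sucnr1. Tas1r3 encodes the shared subunit of the sweet and umami receptors. Its log2 signals were 7.78, 8.02, 8.04 and 7.92 in controls 1 to 4 and 7.80, 8.01, 7.79 and 7.91 in knockouts 1 to 4. Both groups thus spanned nearly the same range, and the difference was -0.06 ± 0.07 SE (95% interval -0.23 to 0.11). It was -0.12 without control 1 and -0.03 without control 3.

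Sucnr1 encodes a receptor for succinate, through which brush cells of other epithelia sense this metabolite. In log2 signal it stood at 6.24, 6.31, 6.20 and 6.14 in controls 1 to 4 and 6.30, 6.30, 6.30 and 6.45 in knockouts 1 to 4. All 4 knockouts lay above the control mean, and control 2 lay above 3 of the knockouts. The difference was 0.11 ± 0.05 SE (fold 1.08, 95% interval -0.01 to 0.24), with a limma p of 0.0673, an adjusted p of 0.910 and an exact permutation p of 0.114. Without control 2 it was 0.14, at a limma p of 0.0356 (4.53% of all clusters were under 0.05 then) and an adjusted p of 0.9996.

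The receptors signal through Gnat3 and Plcb2. Gnat3 encodes the alpha subunit of gustducin. The log2 signals were 4.99, 5.35, 5.40 and 5.13 in controls 1 to 4 and 5.20, 5.20, 5.62 and 5.27 in knockouts 1 to 4, so that knockout 3 was high and control 1 was low. The difference was 0.10 ± 0.12 SE (95% interval -0.18 to 0.38), and it was 0.0019 without knockout 3, 0.03 without control 1 and 0.16 without control 3. This was the member with the largest SE.

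Plcb2 encodes phospholipase C beta 2, which blood cells also make. Controls 1 to 4 had log2 signals of 7.59, 7.79, 7.54 and 7.40, and knockouts 1 to 4 of 7.47, 7.58, 7.45 and 7.63. Control 2 had the highest of the 8 values, as it did for the mean of the myeloid list. The difference was -0.05 ± 0.08 SE (95% interval -0.24 to 0.14). It was 0.02 without control 2, -0.11 without control 4 and -0.0013 with the mean of the myeloid list as a covariate, a fit added after the data were seen.

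The other members are a transcription factor, a cytoskeletal protein and the makers of signals. Pou2f3, the POU-domain factor named above, is also made in keratinocytes. Measured as log2 signal, it was 8.54, 8.61, 8.78 and 8.79 in controls 1 to 4 and 8.75, 8.79, 9.11 and 8.75 in knockouts 1 to 4. All 4 knockouts lay above the control mean, but 3 of them lay within the range of the controls. The difference, 0.17 ± 0.09 SE (fold 1.12, 95% interval -0.05 to 0.38), had a limma p of 0.112, an adjusted p of 0.910 and an exact permutation p of 0.257, and without knockout 3 it was 0.08. Of 10 markers of basal cells and keratinocytes, 2 were higher and 8 lower in the knockouts. Their mean was 9.75 and 10.06 in controls 2 and 3 and lay between 8.80 and 9.04 in the other 6 mice. Controls 2 and 3 were both above all other mice for Krt1 (9.80 and 10.69), Sprr1a (12.16 and 12.02), Krt10, Lor, Ivl, Krt14 and Krt17. They were not for Krt5 (10.68 and 10.90), Krt15 and Trp63, which was lowest in control 2 (9.52). The part of this mean in the Pou2f3 values was not tested.

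Avil encodes advillin, an actin-binding protein of microvilli that sensory ganglion neurons also make. The array gave log2 signals of 7.90, 7.999, 7.98 and 7.85 in controls 1 to 4 and 7.82, 7.93, 7.88 and 8.04 in knockouts 1 to 4. The groups shared most of their range. The difference was -0.02 ± 0.06 SE (95% interval -0.15 to 0.12), the smallest of the members. Its sign turned without control 2 (0.0067), without control 3 (0.0017) and without knockout 1 (0.02). Of 7 sensory ganglion markers, 2 were higher and 5 lower, and their mean ranged over 8.27 to 8.49 among controls and over 8.31 to 8.41 among knockouts.

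Chat encodes choline acetyltransferase, which makes acetylcholine. Its log2 signals were 7.01, 7.11, 7.37 and 7.18 in controls 1 to 4 and 6.99, 7.06, 7.06 and 6.93 in knockouts 1 to 4. All 4 knockouts lay below the control mean, control 3 was highest, and control 1 lay within the range of the knockouts. The difference was -0.16 ± 0.08 SE (fold 0.895, 95% interval -0.34 to 0.01), with a limma p of 0.0676, an adjusted p of 0.910 and an exact permutation p of 0.0857. It was -0.09 without control 3. Without control 1 it was -0.21, at a limma p of 0.0193 (7.97% of all clusters were under 0.05 then) and an adjusted p of 0.621. Autonomic neurons also use choline acetyltransferase, and 5 of their markers averaged between 7.66 and 7.85 across controls and between 7.74 and 7.84 across knockouts, with 3 higher and 2 lower.

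Il25 encodes interleukin 25, the brush cell cytokine of type 2 immunity. Its log2 signals were 7.62, 7.64, 7.75 and 7.73 in controls 1 to 4 and 7.60, 7.71, 7.68 and 7.59 in knockouts 1 to 4. The spread over all mice was the narrowest of the members (0.158 from lowest to highest). The difference was -0.04 ± 0.05 SE (95% interval -0.15 to 0.08), and it was -0.06 without control 1 and -0.02 without control 3.

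The intervals are those of the main limma fit, taken 1 gene at a time, with the mice treated as independent. They concern array signal, whose distance from background is unknown. With the Y-linked covariate described below, the log2 differences of Pou2f3 (0.33) and Gnat3 (0.32) were larger than in the main fit. In folds, they ran from 0.792 at the lowest (Chat) to 1.30 at the highest (Pou2f3 and Gnat3). They do not show that the members were unchanged.

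**Figure D2:**
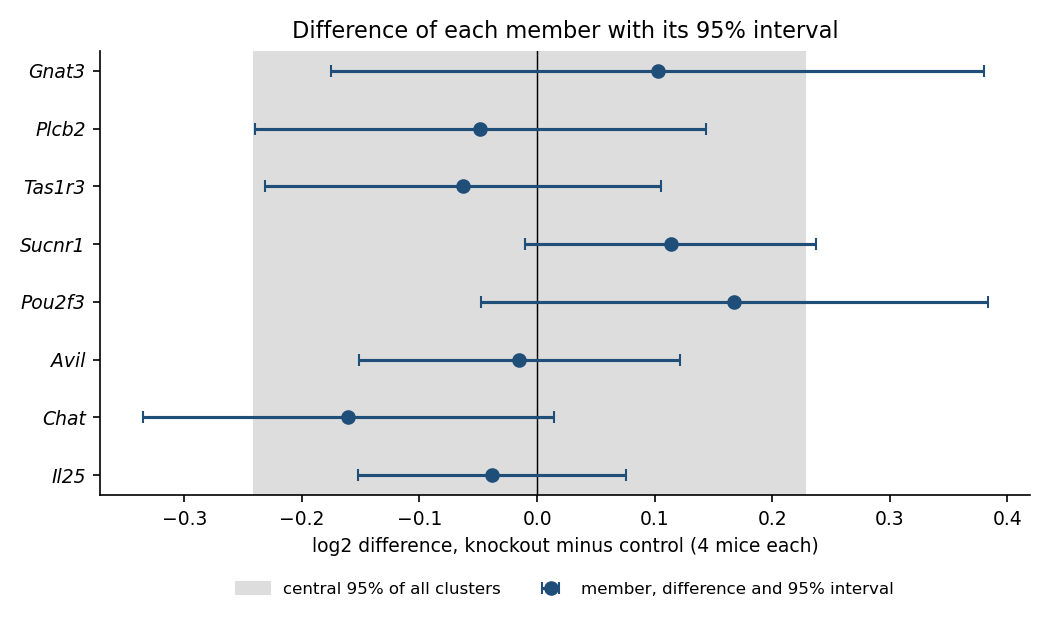
Log2 difference of knockout minus control for each member (points) with its 95% interval from limma, 4 mice in each group. The grey band holds the central 95% of the differences of all single-gene clusters (-0.24 to 0.23). All 8 intervals include 0, and all 8 points lie inside the band.

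By the mean of 3 Y-linked genes, Kdm5d, Eif2s3y and Uty, the mice fell into 4 with high signal (controls 2 to 4 and knockout 3, 10.53 to 10.72) and 4 with low signal (control 1 and knockouts 1, 2 and 4, 7.05 to 8.09). Genotype and Y-linked signal thus overlapped, with 1 mouse of the rarer group in each set. With this mean as a covariate, the limma difference was 0.33 ± 0.07 SE for Pou2f3 (unadjusted p = 0.00128) and 0.32 ± 0.08 SE for Gnat3 (unadjusted p = 0.00422). Neither passed over all clusters, with adjusted p values of 0.993 and 0.9998, and 3.18% of all clusters were at an unadjusted p under 0.05 in this fit. The other 6 members were above an unadjusted p of 0.05 there.

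Within the mice of high Y-linked signal, Pou2f3 was 9.11 in the knockout and 8.61 to 8.79 in the controls. Within those of low signal it was 8.75 to 8.79 in the knockouts and 8.54 in the control. Gnat3 was 5.62 in the knockout and 5.13 to 5.40 in the controls of high signal, and 5.20 to 5.27 in the knockouts and 4.99 in the control of low signal. Both genes were therefore higher in knockouts within each set (0.38 and 0.22 log2 for Pou2f3, 0.33 and 0.23 for Gnat3). Each of these values rests on 1 mouse on one side, and no test can be made within a set. In the set of low signal that mouse was control 1, whose Y-linked mean was 8.09 where those of the knockouts were 7.05 to 7.51. Control 1 also had the high mean of the Bowman's gland list, which its Sox10, Aqp5 and Lyz2 did not share. The part of either the Y-linked mean or that list in these differences was not tested. For Tas1r3 the differences were -0.21 and 0.12, and for Chat -0.16 and -0.02.

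**Figure D3:**
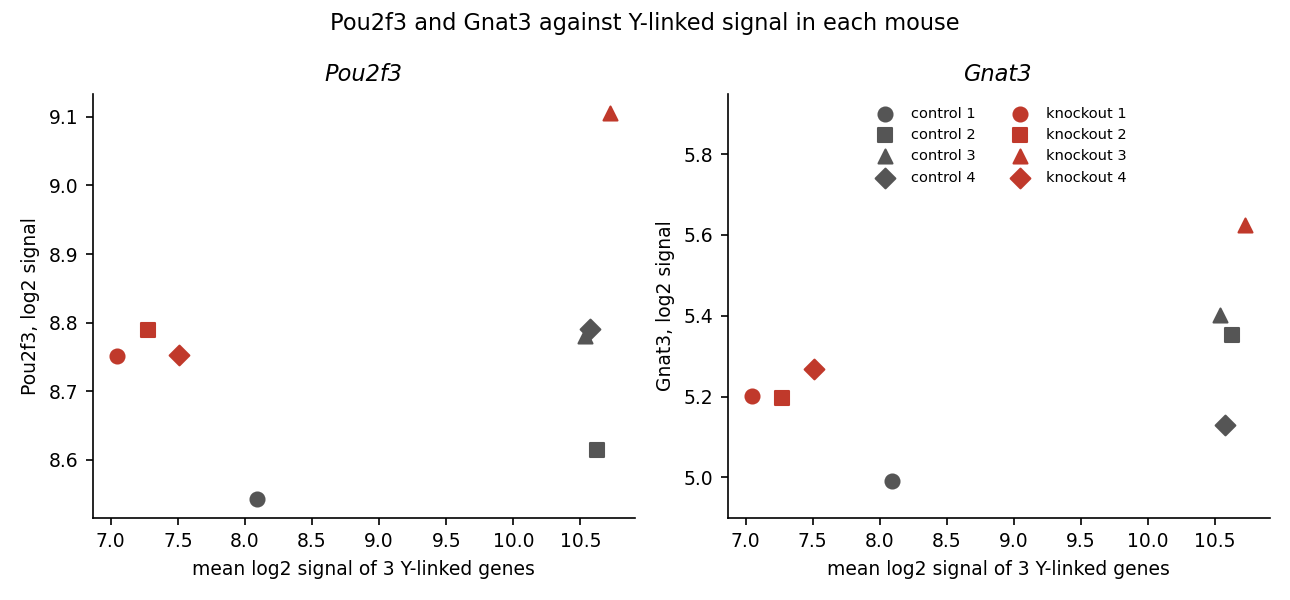
Log2 signal of Pou2f3 (left) and Gnat3 (right) against the mean log2 signal of 3 Y-linked genes in each of 4 control (grey) and 4 knockout (red) mice, with 1 symbol per mouse number. Knockout 3 lies above the 3 controls of high Y-linked signal and control 1 below the 3 knockouts of low signal, in both genes, with 1 mouse of the rarer group in each set.

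The members did not vary as 1 block between mice. Over the 28 pairs of members and the 8 mice, Pearson's r ranged from -0.70 to 0.83 with a median of 0.15, and 18 pairs were positive. By an exact permutation test, 4 pairs were at an unadjusted p under 0.05 and 0 pairs passed after adjustment over the 28 pairs, by r or by Spearman's rho. After each group was centred on its own mean, the median r was 0.23 and 19 pairs were positive.

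The closest pair was Chat and Il25 (r = 0.83, exact permutation p = 0.0025, adjusted p = 0.0688; rho = 0.93, exact permutation p = 0.0022, adjusted p = 0.0625). Without the 2 mice farthest from the median of Chat, r was 0.73, and without control 2 it was 0.86 (adjusted exact permutation p = 0.0111), which was then the 1 pair of 28 to pass. Plcb2 and Avil had an r of 0.76 (exact permutation p = 0.0237, adjusted p = 0.286; rho = 0.81, exact permutation p = 0.0218, adjusted p = 0.305), and 0.79 without the farthest 2 mice. Pou2f3 and Gnat3 had the same r of 0.76 (exact permutation p = 0.0384, adjusted p = 0.286), but a rho of 0.33 (exact permutation p = 0.428, adjusted p = 0.761) and an r of -0.47 without the farthest 2 mice, so that this relation rested on those mice. Il25 and Sucnr1 ran opposite ways (r = -0.70, exact permutation p = 0.0409, adjusted p = 0.286; rho = -0.76, exact permutation p = 0.0368, adjusted p = 0.322), with an r of -0.47 without the farthest 2 mice.

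**Figure D4:**
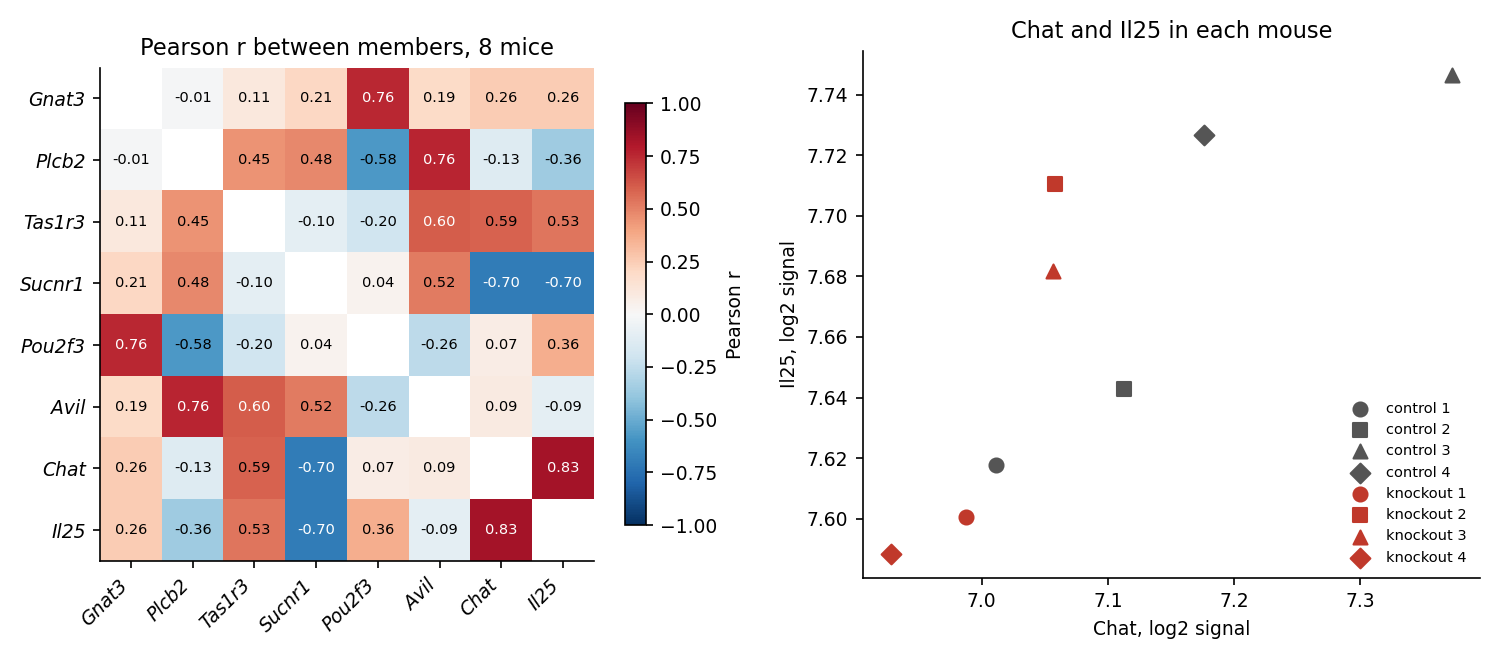
Left, Pearson's r between the log2 signals of each pair of members over the 8 mice (colour scale from -1 to 1). Right, Il25 against Chat in each control (grey) and knockout (red) mouse, both as log2 signal. Chat and Il25 rise together (r = 0.83), with control 3 at the upper right and knockout 4 at the lower left.

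Weak clusters can share a drift of the array, and the mean of the 10894 clusters below the median signal differed little between mice (7.51 in control 1 to 7.59 in control 3). Of the 8 members, Tas1r3 followed this mean most closely (r = 0.75, exact permutation p = 0.0310, adjusted over the 8 relations p = 0.223; rho = 0.83, exact permutation p = 0.0154, adjusted p = 0.123; r = 0.54 without the farthest 2 mice). For Chat r was 0.69 (exact permutation p = 0.0558, adjusted p = 0.223; rho = 0.60, exact permutation p = 0.132, adjusted p = 0.529; r = 0.32 without the farthest 2 mice) and for Il25 0.47 (exact permutation p = 0.242, adjusted p = 0.645; rho = 0.40, exact permutation p = 0.327, adjusted p = 0.856; r = -0.03 without the farthest 2 mice). For the other 5 members r lay between -0.25 and 0.20, but without the farthest 2 mice it was -0.86 for Pou2f3 and -0.70 for Gnat3. The part of this drift in the likeness of Chat and Il25 was not tested.

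With 8 arrays, close likeness to some gene is common. As a description over the 8 arrays and 21788 other clusters, the gene closest to Chat was Mov10l1 (r = 0.995) and that closest to Pou2f3 was Vps39 (r = 0.96). F3 was closest to Plcb2 (r = 0.97), Myo5b to Gnat3 (r = 0.95), 9230112D13Rik to Il25 (r = 0.97), Mir28a to Avil (r = 0.96), Cnn2 to Tas1r3 (r = 0.97) and Spidr to Sucnr1 (r = 0.95). The clusters with an r of at least 0.9 numbered from 5 for Gnat3 to 92 for Chat, and for no member was the closest gene another member.

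The other genes of the pathway, taken from 6 lists of 81 measured genes in all, gave 38 higher and 43 lower in the knockouts, with a median difference of -0.0053. At an unadjusted limma p under 0.05, 1 was higher and 1 lower, which together is 2.47% of them where 5.17% of all clusters were at that level (2.62% higher and 2.55% lower). None passed after adjustment over all clusters.

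The taste cascade list, of which 4 of 10 measured genes encode further receptors (Tas1r1, Tas1r2, Ffar2 and Ffar3), showed 3 genes higher and 7 lower. Trpm5 encodes the cation channel of the cascade, and which cells made its signal was not tested. It had log2 signals of 8.12, 8.03, 8.53 and 8.25 in controls 1 to 4 and 8.31, 8.32, 8.29 and 8.26 in knockouts 1 to 4. The groups overlapped (0.06 ± 0.10 SE). Gng13, the gamma subunit that taste cells and OSNs share, had the smallest p of this list (-0.14 ± 0.09 SE, limma adjusted p = 0.910). The 34 bitter taste receptors of the Tas2r family, which chemosensory cells of the airways use to sense bacterial products, were 17 higher and 17 lower, and the smallest p was that of Tas2r116 (-0.21 ± 0.10 SE, limma adjusted p = 0.910).

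Of 14 further genes of brush cell identity, 8 were higher and 6 lower. The cytoskeleton-linked kinase gene Dclk1 differed by 0.02 ± 0.06 SE, the adaptor gene Sh2d6 by 0.0065 ± 0.06 SE and the zinc-finger factor gene Gfi1b by 0.01 ± 0.05 SE. Unlike the members, Dclk1 lay above the median of the single-gene clusters (11.43 to 11.68), and which cells made it was not tested. Spib, an ETS-family factor gene of brush and lymphoid cells, stood at 9.65 in control 2 against 7.26 to 7.76 in the other 7 mice, and its difference was -0.73 ± 0.43 SE with that mouse and -0.23 ± 0.10 SE without it. All 5 measured genes of the lipid mediator list were lower in the knockouts, with list means of 9.26 in control 2 and 8.24 to 8.52 in the other mice. Its Alox5ap, which myeloid cells also make and which passes arachidonic acid to the 5-lipoxygenase of Alox5, was 10.02 in control 2 and 8.29 to 8.46 elsewhere. Without control 2, 2 of the 5 genes were higher and 3 lower. Control 2 was the mouse with the high myeloid mean, and the part of myeloid cells in these values was not tested.

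The cholinergic list held the 2 pathway genes at an unadjusted p under 0.05. Bche, which encodes the acetylcholine-splitting enzyme butyrylcholinesterase, was 8.15 to 8.39 in controls and 8.32 to 8.57 in knockouts (0.20 ± 0.08 SE, limma adjusted p = 0.910). Chrnb2, a nicotinic receptor subunit gene of neurons, was 9.21 to 9.52 in controls and 9.13 to 9.31 in knockouts (-0.17 ± 0.07 SE, limma adjusted p = 0.910). Both pairs of ranges overlapped. The choline transporter gene Slc5a7 (0.05 ± 0.08 SE) and the vesicular acetylcholine transporter gene Slc18a3 (0.05 ± 0.08 SE), which lies within the Chat locus, had differences of the other sign than Chat.

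The genes that receive the IL-25 signal or carry type 2 immunity were 4 higher and 5 lower of 9 measured. The IL-25 receptor gene Il17rb differed by 0.05 ± 0.06 SE and its partner Il17ra by -0.12 ± 0.06 SE, the smallest p of that list (limma adjusted p = 0.910). Ionocytes, another microvillous cell type of this epithelium that moves ions, gave 3 of 7 genes higher and 4 lower. Their defining factor genes Foxi1 (-0.01 ± 0.04 SE) and Ascl3 (-0.02 ± 0.05 SE) had groups that overlapped, and the proton pump subunit gene Atp6v0d2, also made by osteoclasts, was 8.94 to 9.45 in controls and 9.33 to 9.61 in knockouts (0.27 ± 0.11 SE, limma adjusted p = 0.910).

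**Figure D5:**
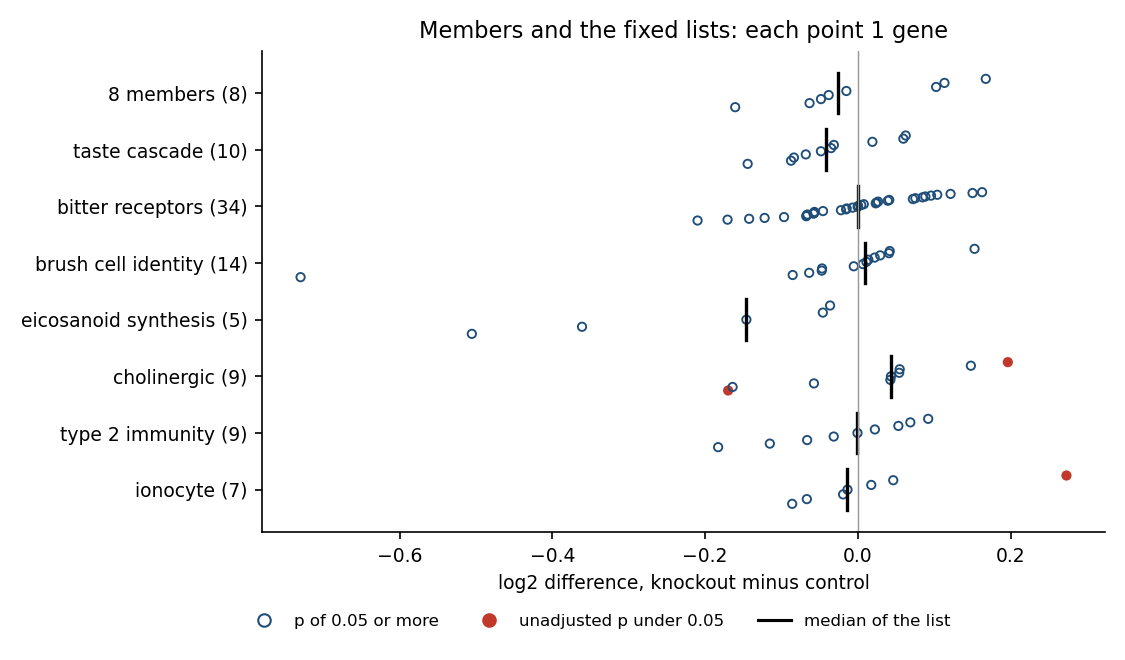
Log2 difference of knockout minus control for each gene (points) of the 8 members, the 6 pathway lists and the ionocyte list, with the number of genes in parentheses and the median of each list as a bar. Filled points had an unadjusted limma p under 0.05. List medians lie between -0.15 and 0.04, and the point farthest to the left is Spib (-0.73).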

How the data were processed

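Total RNA of 8 olfactory mucosae was hybridised, 1 mouse to an array, on the Affymetrix Mouse Gene 1.0 ST platform. Deposited are log2 signals, with 1 value for each transcript cluster, which merges probes along all exons of a gene. The authors made them with Affymetrix Expression Console (no version given in the sources used here, nor the algorithm or genome build). They ran from 2.65 to 14.9 with near-equal array medians and were not normalized again. Of 35557 clusters, 21789 had exactly 1 gene symbol, 1621 had several and 12147 were unnamed in the annotation used. Through Entrez identifiers, 21698 were found in the RefSeq gene table, and 0 symbols changed. Where clusters shared a gene, the one of highest mean stood for it in the lists.

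Knockouts were compared with controls by limma 3.58.1 in R 4.3.3 (lmFit, eBayes, two-sided), adjusted by Benjamini-Hochberg over the 21789 clusters at 0.05. Permutation tests were exact. Intervals are 95% confidence intervals of the mean difference, computed from the spread between mice, and the number of arrays limits the precision. The fit was tested on simulated data. Replicate numbers follow accession order. Named genes were the 8 members, in each list the gene of smallest p and any at p under 0.05, defining markers, and the closest gene of each member. Members and lists were chosen with earlier results of these data known. Calhm3, Ptgs1 and Il1rl1 of the pathway lists had no cluster of their own under these symbols and were not analysed here. Dclk1, Sh2d6, Gfi1b, Slc5a7, Slc18a3, Il17rb, Trpm5, Alox5ap, Cnga2 and Adcy3 were named as markers or after their values were seen. Alternatives were the methods' t-test, quantile normalization, a signal filter, array weights, and Y-linked and myeloid covariates. Others were averaging clusters of a gene, leaving out each mouse, and scaling each array to the mean of 19 measured mature OSN genes. The study instead scaled by the average group difference of a longer list of mature OSN mRNAs. The myeloid covariate, the values within sets of Y-linked signal, the relation to low-signal clusters, and Spib and the lipid mediator list without control 2 were added after the data were seen.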

Additional observations from a re-analysis of the deposited data

Results flagged for a closer look

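Among the 16 groups of 4 mice tested for the members, 3 held a mouse that lay apart from its group by Dixon's criterion at the 95% level, which chance passes in about 1 of 20 groups. Pou2f3 was 9.11 in knockout 3 and 8.75 to 8.79 in the other knockouts. Gnat3 was 5.62 in knockout 3 and 5.20 to 5.27 in the other knockouts, and this mouse was the only knockout of high Y-linked signal. Sucnr1 was 6.45 in knockout 4, where the other 3 knockouts differed by less than 0.01 log2 (6.30 in each).

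With the members included, 33 genes were tested in 66 groups, and 10 groups held such a mouse, where chance passes about 1 in 20. Of the other named genes, control 2 lay apart with Spib at 9.65 (7.55 to 7.76 in the other controls), Alox5 at 8.58 (8.25 to 8.28) and the myeloid gene Tyrobp at 10.96 (9.81 to 9.93). Tyrobp was also low in knockout 2 (9.69, against 9.83 to 9.84), and the sustentacular gene Cbr2 was low in knockout 1 (13.94, against 14.06 to 14.07). Eif2s3y, which is Y-linked, was 8.61 in control 1 (11.12 to 11.26 in the other controls) and 11.33 in knockout 3 (7.35 to 7.75 in the other knockouts).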

How the results depend on the processing

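No member passed after adjustment over all clusters in any setting that tested it, and the smallest adjusted p of a member was 0.608, after scaling to mature OSN genes. That scaling moved the median of all clusters from 0.0024 to 0.12 and that of the members to 0.0936. Of the 19 genes used, 15 were themselves lower in the knockouts, among them Omp, the gene into which Cre was inserted. The study used a longer list and reported that mature OSN numbers were unaffected by conditional Emx2 deletion. Of the members, 3 lay above the median of all clusters and 5 below, as many as without scaling, although the signs of Plcb2 (0.0719), Il25 (0.0820), Avil (0.105) and Tas1r3 (0.0569) turned. With array weights Plcb2 (0.0065) and Avil (0.0201) turned sign, and with the myeloid covariate Avil did (0.0028). The methods' t-test and the averaging of clusters left the difference of each member as it was, so they could not turn a sign. Chat, Pou2f3, Gnat3 and Sucnr1 kept their sign in all 15 settings, but not their size, with Chat between -0.21 and -0.04 (the latter with scaling, and -0.09 with the Y-linked covariate), Pou2f3 between 0.08 and 0.33, Gnat3 between 0.0019 and 0.32 and Sucnr1 between 0.08 and 0.23. The number of members at an unadjusted p under 0.05 was 2 with the Y-linked covariate (Pou2f3 and Gnat3), 2 with array weights (Chat and Sucnr1, 6.95% of all clusters), 1 with quantile normalization (Chat, 5.58%), 1 with scaling (Pou2f3, 6.65%) and 1 with the myeloid covariate (Sucnr1, 5.59%). Leaving out 1 mouse gave 0 to 1 (3.37% to 7.97% of all clusters), and the median difference of the members then ranged from -0.0399 to 0.0142, with Plcb2 from -0.109 to 0.0217 and Avil from -0.0564 to 0.0174. Over all clusters, 5 passed with array weights, 5 with scaling and 2 among clusters above the median signal, a filter that left 0 members, while leaving out 1 mouse gave 0 to 1. Correlated pairs numbered 1 without control 2 and 0 with quantile normalization. No paired analysis was possible because the labels give no numbers shared between groups.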

Other observations

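Among the other cell types of the mucosa, the 19 measured genes of mature OSNs were 4 higher and 15 lower in the knockouts. The list mean overlapped between groups, at 11.48 to 11.82 in controls and 11.46 to 11.69 in knockouts. At an unadjusted limma p under 0.05, 5 of them were lower, where 2.55% of all clusters were lower and 2.62% higher at that level. These genes were read in the same mice and are not independent, and no test of the list was made. S100a5, a calcium-binding protein gene of active OSNs, was 12.83 to 13.27 in controls and 12.25 to 12.70 in knockouts (-0.58 ± 0.12 SE, limma adjusted p = 0.459). Cidea differed by -0.43 ± 0.11 SE (adjusted p = 0.660 by limma), and Kirrel2, Rtp2 and Pde4a by -0.33, -0.26 and -0.16. Gap43, the growth-cone gene of immature OSNs, was the 1 gene of 10 in its list at that level (-0.11 ± 0.05 SE), with 2 higher and 8 lower. Of the mast cell list, 4 were higher and 2 lower, among them the receptor gene Kit (0.17 ± 0.07 SE) and the protease gene Mcpt4 (-0.18 ± 0.07 SE), both at an unadjusted limma p under 0.05 and an adjusted p of 0.910.

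No gene reached an unadjusted limma p of 0.05 in the lists of sustentacular cells (3 higher, 3 lower), Bowman's glands (2 higher, 6 lower), ciliated respiratory cells (4 higher, 3 lower), basal cells and keratinocytes, myeloid cells (3 higher, 8 lower), sensory ganglion or autonomic neurons. Their smallest p values belonged to Cbr2 (-0.08 ± 0.05 SE), Aqp5 (-0.09 ± 0.07 SE), Foxj1 (-0.12 ± 0.08 SE), Lor (-0.60 ± 0.28 SE), Tyrobp (-0.35 ± 0.23 SE), Trpm8 (-0.08 ± 0.09 SE) and Hand2 (-0.07 ± 0.06 SE), in this order.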
